A study of Mus musculus with 6 samples.

Results

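The 35 genes described here serve protein folding and its control in the endoplasmic reticulum (ER): chaperones, disulfide isomerases and oxidases, 3 stress sensors or transcription factors, components of ER-associated degradation, and subunits of the translocon, the signal peptidase and oligosaccharyltransferase. They were chosen by symbol. All 35 were among the 34745 genes listed in the count table, and all 35 passed the filter on low counts that left 12537 tested genes. They were compared between monocytic myeloid-derived suppressor cells (M-MDSCs) of wild-type (WT) mice and of Lyz-mTOR mice, with 3 RNA-seq libraries per group. Both groups had the C57BL/6 background. The WT cells carried no labelled alteration, and the mTOR-/- cells came from mice with floxed mTOR alleles and Cre driven by the Lyz promoter, which is active in myeloid cells, so that other cells of these mice still make mTOR. The source was bone marrow, and per the study's methods marrow cells were cultured with GM-CSF and IL-6 and the MDSCs were sorted. The ages of the mice were not given in the sources used here. M-MDSCs are immature monocyte-like cells that restrain T cells, and mTOR is a kinase that couples nutrients and growth factors to cell growth.

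Proteins bound for the cell surface, the secretory granules or the outside of the cell enter the ER through the translocon, where chaperones hold them, lectins check their sugars and isomerases set their disulfide bonds. Chains that fail are pulled back to the cytosol and degraded, a process called ER-associated degradation. When unfolded chains build up, the sensors IRE1, PERK and ATF6 start the unfolded protein response, in which XBP1 and the cleaved form of ATF6 bind ER stress elements in promoters and raise the transcription of chaperone genes.

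Of the 35 genes, 1 passed the test. Ero1lb, which encodes an oxidase that recharges protein disulfide isomerase, was lower in mTOR-/- M-MDSCs. No gene of the module was higher past the test, and none passed it with a fold-change of at least 2. The test was edgeR's quasi-likelihood test with Benjamini-Hochberg adjustment over the 12537 genes, and a gene passed where its adjusted p was under 0.05. It called 4.04% of all tested genes (507 genes; 2.18% higher and 1.87% lower) and 2.86% of the 35. With the fold-change of 2 it called 1.69% of all tested genes (1.04% higher and 0.654% lower) and 0 of the 35. At an unadjusted p under 0.05, 10 of the 35 passed (against 21.2% of all tested genes), 5 of them higher (11.7%) and 5 lower (9.52%). With DESeq2, another count test, 0 of the 35 were higher and 5 lower past the threshold, against 4.31% higher and 3.52% lower (7.83% in all) of the 13613 genes to which it gave an adjusted p. The median log2 fold-change of the 35 (mTOR-/- over WT) was -0.15, against 0.00492 over all tested genes, and 25 of the 35 (71.4%) lay below 0, against 49.4% of all tested genes. That median rested in part on mTOR-/- replicate 3: it was -0.05 without that library. The 95% interval of the log2 fold-change lay within a 2-fold change in either direction for 34 of the 35 genes (8953 of all 12537). It lay within a 1.5-fold change for 30 of the 35 (5529 of all 12537). The interval that reached beyond 2-fold was that of Derl3.

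**Figure D1:**
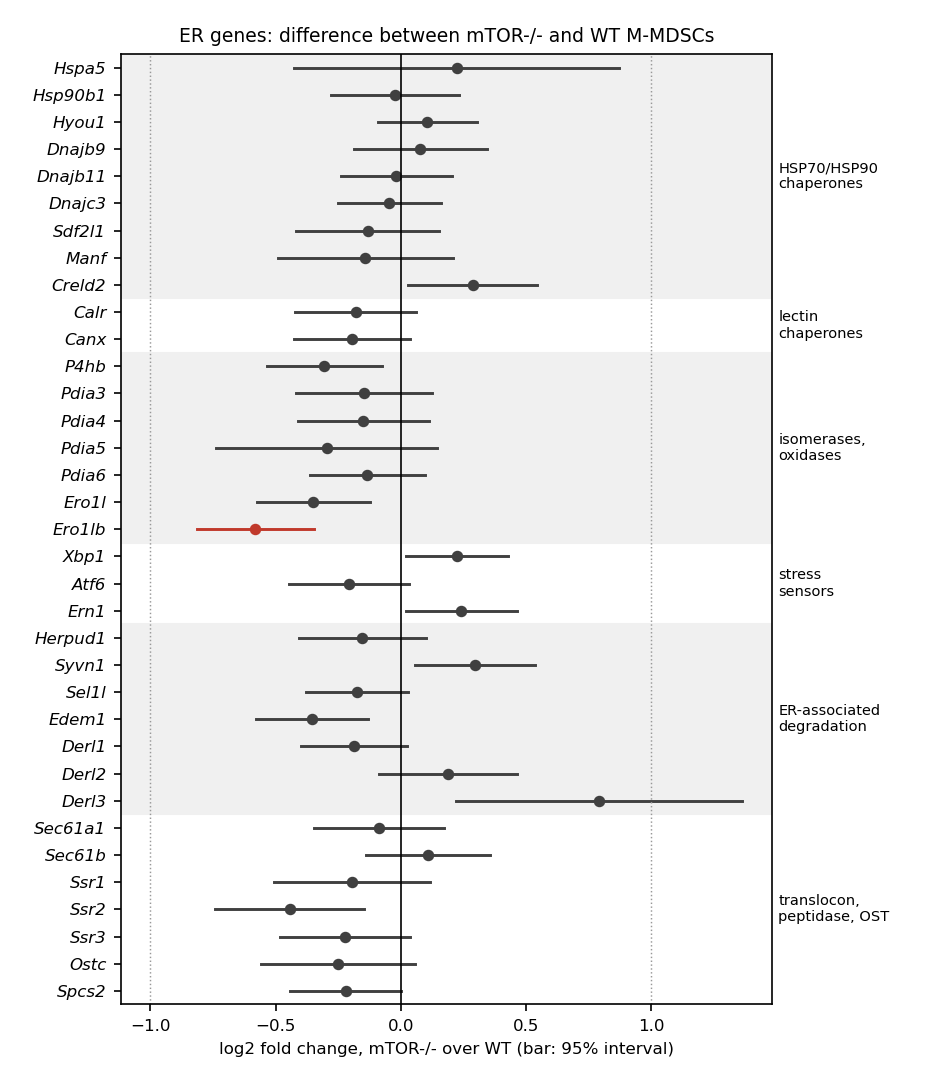
Log2 fold-change of each of the 35 ER genes between mTOR-/- and WT M-MDSCs (points) with its 95% interval (bars), by role, from edgeR's quasi-likelihood fit with 3 libraries per group. Ero1lb, in red, passed the test, dotted lines mark a 2-fold change, and the interval of Derl3 reached 1.36.

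Library depth was 12317507 to 12903191 counts in the mTOR-/- group and 14066578 to 14768126 in the WT group, so that 3 counts, the limit that a count of 0 allows, correspond to 0.203 to 0.244 CPM (counts scaled to library size). mTOR-/- replicate 3 stood apart: its correlation with mTOR-/- replicates 1 and 2 over log2 CPM was 0.952 to 0.955, against 0.973 between those replicates and 0.978 to 0.981 among the WT libraries. Whole-gene counts of Mtor did not separate the groups (883, 983 and 908 counts in mTOR-/- and 980, 875 and 929 in WT, log2 fold-change 0.15, SE 0.11, edgeR's quasi-likelihood adjusted p = 0.442), so these counts do not check the genotype labels. A floxed allele can lose a few exons and still be transcribed, and exon-level counts were not analysed here. The paper states that loss of mTOR in the MDSCs was verified, and those data were not examined here. Lyz2, the gene whose promoter drives Cre in the usual Lyz-Cre line, was lower in mTOR-/- (log2 fold-change -1.68, SE 0.20, edgeR's quasi-likelihood adjusted p = 0.00255). Of 10 monocytic markers, 3 were higher (Csf1r, Cd14 and F13a1) and 1 lower past the test. The lower marker was Ly6c2, with 891, 1100 and 1363 counts in mTOR-/- and 2562, 1691 and 3169 counts in WT. Its log2 fold-change was -0.999 (edgeR's quasi-likelihood adjusted p = 0.0426). The paper defines M-MDSCs by high Ly6C, among other surface markers. Ly6c1, the other Ly6C gene among the 10, did not pass (log2 fold-change 0.28, edgeR's quasi-likelihood adjusted p = 0.535). Markers of other cells also moved with the group. Those of mast cells and basophils summed to 466 to 568 CPM in mTOR-/- and 1391 to 1471 CPM in WT, with 4 of 7 lower past the test, those of dendritic cells summed to 526 to 657 CPM against 131 to 290 CPM, with 3 of 10 higher past the test (7 were tested), and those of granule-making progenitors summed to 209 to 264 CPM against 295 to 377 CPM, with 2 of 7 lower. Granulocytic markers summed to 3121 to 3452 CPM against 2817 to 3076 CPM, with 2 of 10 higher and 2 lower past the test. Among them Ly6g, whose product defines granulocytic MDSCs and is absent from M-MDSCs by definition, had 173, 139 and 198 counts in mTOR-/- and 12, 35 and 71 counts in WT (log2 fold-change 2.26, edgeR's quasi-likelihood adjusted p = 0.0365), and Ltf, a granule protein, was lower (log2 fold-change -2.04, edgeR's quasi-likelihood adjusted p = 0.00214). Markers of B and plasma cells, the latter rich in ER, summed to 266 to 271 CPM in mTOR-/- and 196 to 204 CPM in WT. Of these markers 7 were tested and 1 was higher, Irf4 (log2 fold-change 0.39, edgeR's quasi-likelihood adjusted p = 0.0325), which held most of the sum, and Mzb1, Jchain, Pou2af1 and Ms4a1 were too low to test. Erythroid markers summed to 2.11 to 3.88 CPM against 6.68 to 11.2 CPM, and the sums of the monocytic and of the T and NK cell markers overlapped. Macrophage markers summed to 556.8 to 662.5 CPM in mTOR-/- and 662.4 to 734.6 CPM in WT, a narrow overlap. Of these 9 markers 6 were tested and 1 was higher past the test. It was Clec4f, with 86, 75 and 179 counts in mTOR-/- and 0 in each WT library (edgeR's quasi-likelihood adjusted p = 0.00236). The part of these cells in the values below was not tested, and in bulk RNA fewer cells of a type and less RNA per cell cannot be told apart.

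The sequence upstream of these genes was searched for the elements that XBP1 and ATF6 are known to bind. In RefSeq's promoter sequences for GRCm38.p6, 28 of the 35 genes had an entry (Ero1l and Ero1lb under the current names Ero1a and Ero1b). The 250 bases before the annotated start were searched on both strands for the ER stress element (ERSE: CCAAT, any 9 bases, CCACG), for ERSE-II (ATTGG, any base, CCACG) and for the core of the unfolded protein response element (TGACG followed by TGG). ERSE was found in 10 of the 28 (35.7%), against 37 of 32851 promoters of all genes (0.113%). The 35 were listed as ER chaperone and unfolded protein response genes, and the 37 promoters include theirs. A higher share was thus built into the choice of genes and was not tested. ERSE-II was found in 1 of the 28 (3.57%), that of Herpud1, against 0.0304% of all promoters, and the third element in 0 of the 28 against 0.563%. No match in these genes overlapped a match to another of the 3 elements. The windows printed here are those of Ero1lb, the gene that passed the test, and of Hspa5, the classical target of the response. Those of Creld2, Syvn1 and Derl3, whose mTOR-/- libraries all lay above the WT libraries, and of Herpud1 with its ERSE-II are also printed. Calr and Canx held ERSE too, with every mTOR-/- library below every WT library, and are not printed. Groups did not overlap in 14.5% (higher) and 13.9% (lower) of all tested genes. Each is printed 5′ to 3′ on the strand of its gene, with the fixed bases of the element in capitals. Where the element lies on the opposite strand the capitals read CGTGG and ATTGG.
Hspa5: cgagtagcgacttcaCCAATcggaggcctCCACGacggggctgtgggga
Ero1lb: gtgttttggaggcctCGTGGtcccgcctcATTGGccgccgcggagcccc
Creld2: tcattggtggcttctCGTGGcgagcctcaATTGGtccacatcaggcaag
Syvn1: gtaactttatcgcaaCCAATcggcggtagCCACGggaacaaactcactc
Derl3: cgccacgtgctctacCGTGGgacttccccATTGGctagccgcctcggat
Herpud1: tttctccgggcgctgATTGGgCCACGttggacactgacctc

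On GRCm38.p6 these windows lie at chr2:34772010-34772058 (Hspa5, forward strand), chr13:12565667-12565715 (Ero1lb, forward), chr15:88819505-88819553 (Creld2, forward), chr19:6046517-6046565 (Syvn1, forward), chr10:75893227-75893275 (Derl3, forward) and chr8:94386362-94386402 (Herpud1, forward), all upstream of the start that RefSeq annotates. In the deposited coordinates Hspa5 starts at 34771970, so its window lies inside the deposited span of the gene, and the other 5 windows lie outside theirs. The element nearest to its start was that of Syvn1, 44 to 26 bases before it, and that of Hspa5 lay 65 to 47 bases before. Among the elements with 1 copy, that of Ero1lb was the farthest from the start, at 201 to 183 bases. Hsp90b1 held 2 ERSE copies. The others with ERSE were Dnajc3, Calr, Canx and Pdia6. A match describes the letters of a window and not bound protein.

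**Figure D2:**
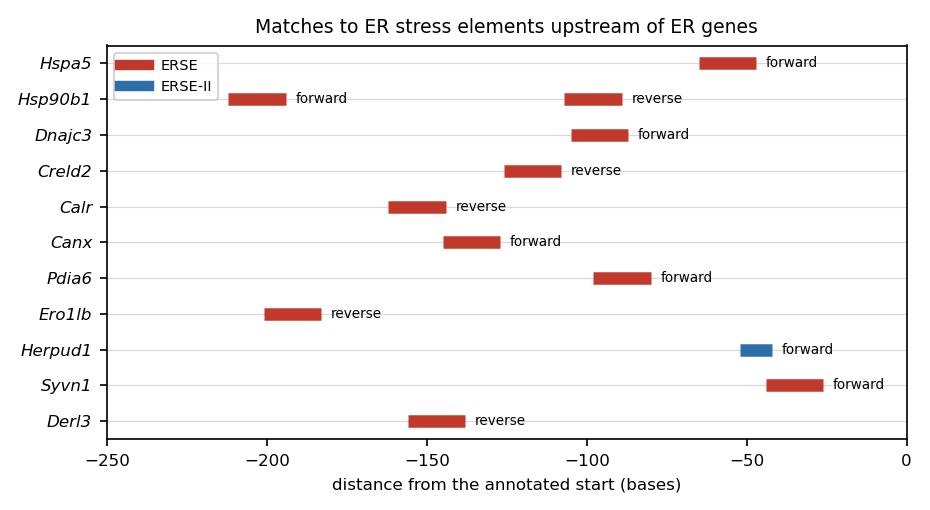
Distance in bases of each ERSE (red) and ERSE-II (blue) match from the annotated start of its gene, with its direction relative to the gene. The matches lay between 212 and 26 bases before the start, and Hsp90b1 held 2.

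The 10 genes with ERSE did not share a direction. Their log2 fold-changes ran from -0.58 for Ero1lb to 0.79 for Derl3, with 4 above and 6 below 0 and a median of -0.04. The 18 genes with a promoter entry and no ERSE had 5 above and 13 below 0 and a median of -0.15. Over the whole table, 19 tested genes held ERSE in their promoter, 12 above and 7 below 0, and Ero1lb was the 1 among them that passed the test.

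The lumenal HSP70 and HSP90 family with its co-chaperones (9 genes) had 4 log2 fold-changes above 0 and 5 below, with a median of -0.02, and none passed edgeR's test. Hspa5 encodes BiP, the ER HSP70 that binds unfolded chains and holds the stress sensors inactive. It measured 4615, 2431 and 3539 CPM in the mTOR-/- libraries and 4413, 2435 and 2223 CPM in the WT libraries. Replicate 1 was the highest library of each group and the groups overlapped widely: the highest library was 1.90 times the lowest in mTOR-/- and 1.99 times in WT. Its log2 fold-change was 0.22 (SE 0.29, 95% interval -0.43 to 0.87, edgeR's quasi-likelihood adjusted p = 0.702), and with single libraries left out it ran from -0.02 (without mTOR-/- replicate 1) to 0.59 (without WT replicate 1), past the test in none of these fits. Hsp90b1, the ER HSP90 that folds Toll-like receptors and integrins, measured 2725, 2334 and 2206 CPM in mTOR-/- and 2408, 2439 and 2544 CPM in WT. The WT values lay within the range of the mTOR-/- values. Its log2 fold-change was -0.02 (95% interval -0.28 to 0.23).

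Creld2, which encodes a secreted chaperone with isomerase activity, measured 127, 116 and 96.7 CPM in mTOR-/- and 94.8, 91.0 and 92.2 CPM in WT. The mTOR-/- libraries all lay above the WT libraries, replicate 3 by little. Its log2 fold-change of 0.29 (SE 0.11) did not pass (edgeR's quasi-likelihood adjusted p = 0.194). Groups that did not overlap were common in the table, in 28.4% of all tested genes, 14.5% higher and 13.9% lower, and in 19 of the 35 (54.3%), 7 higher and 12 lower. Hyou1, an HSP70-like exchange factor for BiP, was the other of the 9 with groups that did not overlap (577 to 616 CPM in mTOR-/- and 522 to 574 CPM in WT), with a log2 fold-change of 0.10. The groups overlapped for the J-domain co-chaperones Dnajb9, Dnajb11 and Dnajc3 (log2 fold-changes 0.08, -0.02 and -0.05), for Sdf2l1, a partner of the ER J-proteins (-0.13), and for Manf, a BiP-binding factor that cells under ER stress secrete (-0.14).

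The lectin chaperones hold glycoproteins by their sugars while they fold. Calr, the soluble calreticulin, measured 2234, 2140 and 1880 CPM in mTOR-/- and 2360, 2309 and 2421 CPM in WT. Canx, its membrane-bound relative calnexin, measured 676, 713 and 578 CPM in mTOR-/- and 728, 748 and 775 CPM in WT. In both genes every mTOR-/- library lay below every WT library and replicate 3 was the lowest. The log2 fold-changes were -0.18 for Calr and -0.19 for Canx, and neither passed (edgeR's quasi-likelihood adjusted p = 0.367 and 0.315).

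All 7 disulfide isomerases and oxidases had a log2 fold-change below 0, with a median of -0.30, and 1 of them passed the test. Ero1lb (ENSMUSG00000057069, chromosome 13, 12565883 to 12609526 in the deposited coordinates) measured 86.8, 73.2 and 79.9 CPM in mTOR-/- and 126, 111 and 121 CPM in WT. The groups did not overlap, and the highest mTOR-/- library lay well under the lowest WT library. Its log2 fold-change was -0.58 (SE 0.10, 95% interval -0.82 to -0.35, edgeR's quasi-likelihood adjusted p = 0.0172), a WT level 1.496 times that in mTOR-/-. The call needed all 3 WT libraries, since the adjusted p was 0.0853, 0.0513 and 0.0898 without WT replicates 1, 2 and 3 in the same edgeR test, at log2 fold-changes of -0.55, -0.63 and -0.57. Per length, Ero1lb stood at 19.0 ± 1.496 FPKM in mTOR-/- and 28.0 ± 1.84 FPKM in WT (mean ± SD, n = 3), where FPKM are the authors' read counts scaled to gene length and library size.

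Ero1l, the more abundant oxidase of the pair, measured 1730, 1693 and 1508 CPM in mTOR-/- and 2090, 2074 and 2116 CPM in WT. Its groups did not overlap either, and the WT libraries lay close together. Its log2 fold-change was -0.35 (SE 0.10, 95% interval -0.58 to -0.12), which did not pass with edgeR's quasi-likelihood test (adjusted p = 0.0918) and passed with DESeq2 (adjusted p = 0.00672). P4hb, which encodes the main protein disulfide isomerase and the substrate of both oxidases, measured 1268, 1265 and 1094 CPM in mTOR-/- and 1438, 1497 and 1550 CPM in WT. Every mTOR-/- library lay below every WT library, with a log2 fold-change of -0.31 (edgeR's quasi-likelihood adjusted p = 0.132, DESeq2's 0.0363). The other isomerases, Pdia3, which works with the lectins, Pdia4, Pdia5 and Pdia6, had log2 fold-changes of -0.15, -0.15, -0.30 and -0.13, with groups that overlapped. Summed over the 7 genes, counts were 5645.5, 5431.5 and 4685.1 CPM in mTOR-/- and 6100.8, 6276.1 and 6452.7 CPM in WT, so the sums did not overlap.

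**Figure D3:**
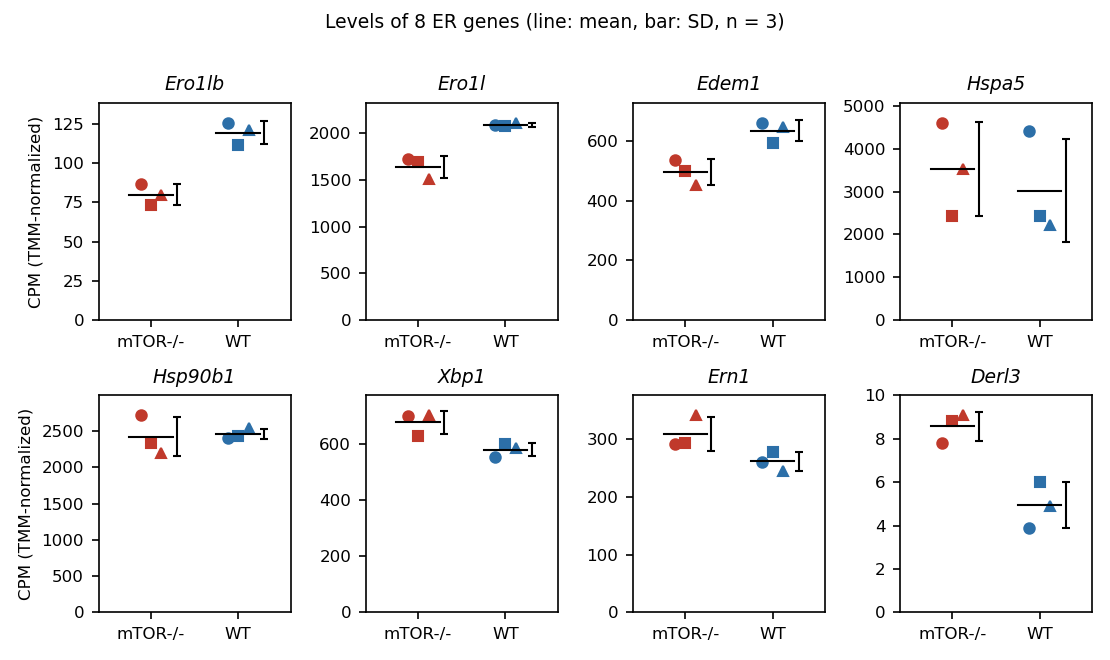
CPM of 8 ER genes in each mTOR-/- (red) and WT (blue) library, with replicates 1, 2 and 3 as circle, square and triangle, a line at the mean and a bar of 1 SD (n = 3). Ero1lb, Ero1l and Edem1 lay lower and Xbp1, Ern1 and Derl3 higher in every mTOR-/- library than in any WT library, and Hspa5 and Hsp90b1 overlapped.

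The sensors and factors did not move together. Ern1, which encodes IRE1, the kinase and RNase that splices Xbp1 mRNA, measured 290.5, 294 and 341 CPM in mTOR-/- and 259.9, 278 and 245 CPM in WT. Xbp1, the transcription factor made from the spliced mRNA, measured 699.7, 630.6 and 705 CPM in mTOR-/- and 555, 600.4 and 587 CPM in WT. For both genes every mTOR-/- library was above every WT library. Their log2 fold-changes were 0.24 (SE 0.10) and 0.22 (SE 0.09), and neither passed (edgeR's quasi-likelihood adjusted p = 0.204 and 0.202). Atf6, the membrane-bound factor released by cleavage, measured 139, 138 and 116 CPM in mTOR-/- and 142, 147 and 164 CPM in WT, below it in every library by a small margin, with a log2 fold-change of -0.21 (edgeR's quasi-likelihood adjusted p = 0.301). Gene counts do not separate spliced from unspliced Xbp1 and do not measure the cleavage of ATF6.

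Of the 7 genes of ER-associated degradation, 3 had log2 fold-changes above 0 and 4 below, and none passed edgeR's test. Groups did not overlap in 6 of them, 3 in each direction, against 28.4% of all tested genes (14.5% higher and 13.9% lower). Syvn1, the ubiquitin ligase at the centre of the pathway, measured 135, 132 and 157 CPM in mTOR-/- and 116, 124 and 105 CPM in WT, and Sel1l, its scaffold, measured 421, 391 and 448 CPM in mTOR-/- and 497, 463 and 461 CPM in WT. These partners in 1 complex thus lay on opposite sides, with log2 fold-changes of 0.30 and -0.17 (edgeR's quasi-likelihood adjusted p = 0.158 and 0.306). Edem1, which marks misfolded glycoproteins for removal by trimming their mannose, measured 538, 500 and 453 CPM in mTOR-/- and 662, 594 and 648 CPM in WT. Its groups did not overlap, and its log2 fold-change of -0.35 (SE 0.10) missed the threshold with edgeR's quasi-likelihood test (adjusted p = 0.0840) and passed with DESeq2 (adjusted p = 0.0180).

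The derlins are membrane proteins through which chains leave the ER. Derl3 had the highest log2 fold-change of the 35 and the lowest level per length in WT (3.67 ± 0.768 FPKM, n = 3). It had 96, 114 and 119 counts in mTOR-/- and 55, 88 and 69 counts in WT, or 7.82, 8.80 and 9.10 CPM against 3.91, 6.01 and 4.91 CPM. The groups did not overlap, with a log2 fold-change of 0.79 (SE 0.25, 95% interval 0.22 to 1.36, edgeR's quasi-likelihood adjusted p = 0.121). Derl2, with 78.7 to 102 CPM in mTOR-/- and 74.9 to 78.1 CPM in WT, had a log2 fold-change of 0.19, and Derl1, with 259 to 306 CPM against 322 to 336 CPM, one of -0.19. Both had groups that did not overlap, and neither passed edgeR's test. Herpud1, which gathers the degradation complex and carries ERSE-II, measured 172, 140 and 138 CPM in mTOR-/- and 182, 156 and 163 CPM in WT, with overlap and a log2 fold-change of -0.15.

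At the entry to the ER, 6 of 7 genes had a log2 fold-change below 0, with a median of -0.22, and none passed edgeR's test. Ssr2, a subunit of the translocon-associated protein complex, measured 139, 146 and 109 CPM in mTOR-/- and 155, 187 and 193 CPM in WT. The groups did not overlap, and replicate 3 was again the lowest. Its log2 fold-change was -0.44 (SE 0.13, edgeR's quasi-likelihood adjusted p = 0.1001, DESeq2's 0.0365). The other subunits Ssr1 and Ssr3 were at -0.20 and -0.22, the latter without overlap. Spcs2, of the signal peptidase, was at -0.22, also without overlap, and Ostc, of the oligosaccharyltransferase, at -0.25. The channel itself, Sec61a1 and Sec61b, was at -0.09 and 0.11, with overlap in both.

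Among the mTOR-/- libraries, replicate 3 was the lowest in 25 of the 35 genes, replicate 2 in 8 and replicate 1 in 2, and replicate 1 was the highest in 20. The SD of log2 CPM was larger among the mTOR-/- than among the WT libraries in 32 of the 35. These orders and spreads were not counted over all tested genes. mTOR-/- replicate 3 also stood apart over all tested genes, so they are not read as particular to the 35. Summed over the 35 genes, counts were 22542.7, 19461.3 and 18829.3 CPM in mTOR-/- and 22711.9, 20753.2 and 21273.3 CPM in WT, which is 1.91% to 2.25% and 2.06% to 2.27% of all counts, with overlap. Without Hspa5 the sums were 17928.2, 17030.1 and 15290.8 CPM in mTOR-/- and 18299.1, 18318.7 and 19050.3 CPM in WT, and no longer overlapped. Hspa5, which had the widest range within both groups, was left out with its values known, and no sum was tested. Per length, the most abundant in WT were Calr (552 ± 11.8 FPKM), Ero1l (471 ± 4.16 FPKM), Hsp90b1 (453 ± 10.1 FPKM) and Hspa5 (432 ± 176 FPKM), each with n = 3. The SD of Hspa5 spans the other 3, so its place in that order is not set by these libraries.

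**Figure D4:**
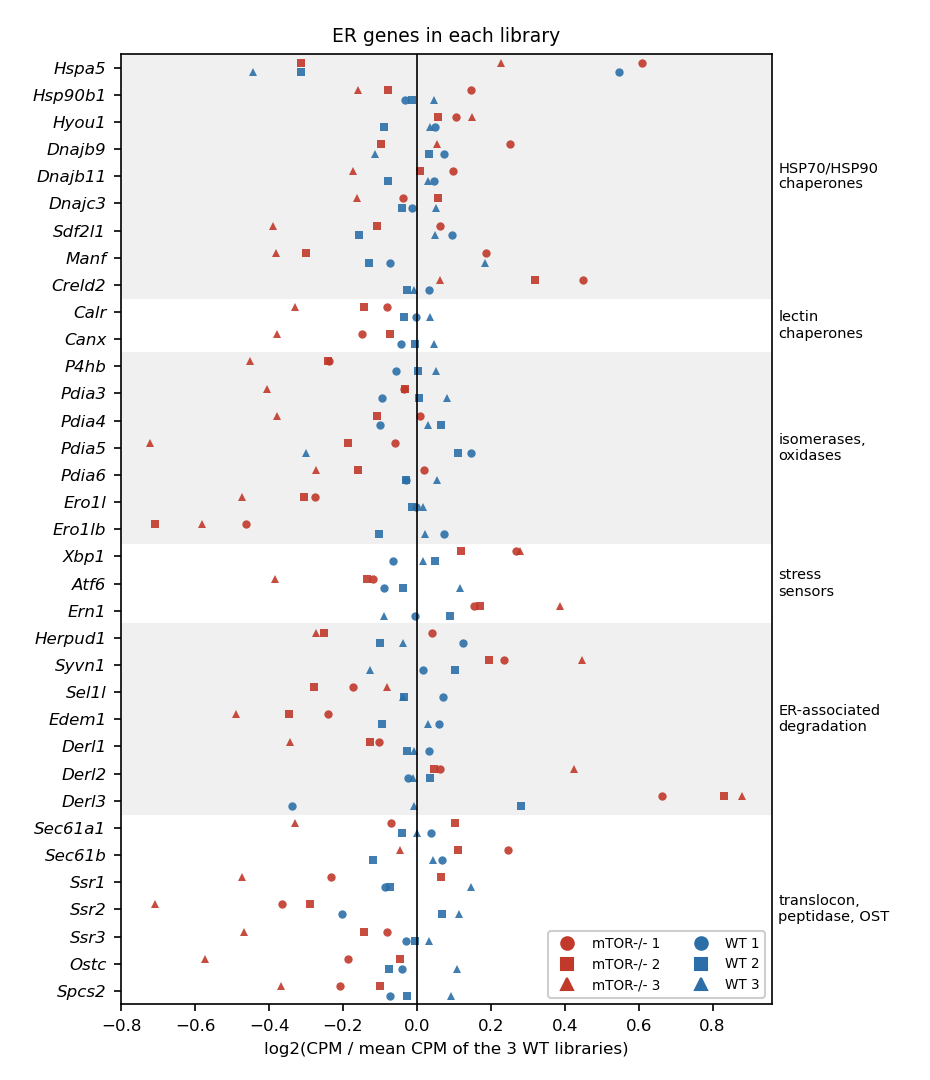
Level of each ER gene in each library as log2 of its CPM over the mean CPM of the 3 WT libraries, for mTOR-/- (red) and WT (blue), with replicates 1, 2 and 3 as circle, square and triangle. The red triangles, mTOR-/- replicate 3, were the lowest mTOR-/- library in 25 of 35 genes, and Hspa5 varied within both groups. The share over all tested genes was not counted.

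The rest of the secretory pathway was described by 132 other genes, of which 128 were tested: 1 was higher and 3 were lower past the test, and the median log2 fold-change was -0.09, with 82 below 0. In the PERK arm, which slows translation and then induces stress genes through ATF4, 1 of 12 was lower. It was Atf3, a stress-induced transcription factor, with 123, 113 and 126 CPM in mTOR-/- and 158, 166 and 172 CPM in WT (log2 fold-change -0.46, SE 0.09, edgeR's quasi-likelihood adjusted p = 0.0257). That call was lost without any 1 library other than mTOR-/- replicate 3, at an adjusted p of 0.0503 to 0.139 in the same edgeR test, while the log2 fold-change stayed between -0.50 and -0.42. Among its relatives, Atf4 measured 1114, 1055 and 1000.05 CPM in mTOR-/- and 1230, 1216 and 1280 CPM in WT, and its log2 fold-change of -0.23 did not pass (edgeR's quasi-likelihood adjusted p = 0.193). Ddit3, which encodes CHOP, was at -0.29 without overlap and did not pass, and Eif2ak3, which encodes PERK, was at 0.10. These 3 were picked for their place in the arm, with their values known. Of the 12 genes of the arm, 6 lay above 0 and 6 below, with a median of -0.09. The highest was Ppp1r15b, at 0.28 without overlap, and it did not pass. Of the 12 partners of the ATF6 and IRE1 arms 0 passed, with a median of 0.09.

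Of 29 tested further ER folding genes, 1 was lower past the test, with a median of -0.19 and 23 below 0. It was Cnpy2, a small lumenal protein of the saposin-like family, with 31.1, 28.4 and 28.5 CPM in mTOR-/- and 48.9, 44.5 and 47.2 CPM in WT (log2 fold-change -0.67, SE 0.12, edgeR's quasi-likelihood adjusted p = 0.0162), a call lost without each WT library (adjusted p 0.0561 to 0.0889, log2 fold-change -0.65 to -0.71). Of 23 further genes of ER-associated degradation, 1 was lower and 1 higher, with a median of -0.05. Ube2g2, a ubiquitin-conjugating enzyme of the pathway, measured 48.7, 46.4 and 73.8 CPM in mTOR-/- and 100.1, 92.0 and 101 CPM in WT (log2 fold-change -0.80, SE 0.17, edgeR's quasi-likelihood adjusted p = 0.0362). Aup1, which recruits Ube2g2 to the membrane, measured 190.1, 179.6 and 236.5 CPM in mTOR-/- and 139, 144 and 145 CPM in WT (log2 fold-change 0.51, SE 0.11, edgeR's quasi-likelihood adjusted p = 0.0420). The groups did not overlap in either gene, and the pair lay on opposite sides. With 1 library fewer both calls were often lost. In the same edgeR test the adjusted p of Ube2g2 was 0.0666 to 0.140 without any 1 library other than mTOR-/- replicate 3, and that of Aup1 was 0.0824 to 0.165 without mTOR-/- replicate 1 or without any 1 WT library. Over all fits with 1 library left out, the log2 fold-change of Ube2g2 stayed between -1.05 and -0.68 and that of Aup1 between 0.37 and 0.57. Exons of Aup1 overlap Htra2 on the opposite strand and exons of Ube2g2 overlap 2 genes on its own strand, so their counts could be split between genes. The lists for the translocon (27 tested) and for COPII and COPI transport (25 tested) had 0 past edgeR's test, with medians of -0.10 and -0.04.

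Chaperones outside the ER gave a contrast list. Of 29 tested cytosolic and mitochondrial chaperones, 1 was lower past the test, 25 lay below 0, and the median was -0.19, close to that of the ER genes. The 1 past the test was Hspa1a, an inducible cytosolic HSP70, with 121, 123 and 163 counts in mTOR-/- and 370, 367 and 410 counts in WT (log2 fold-change -1.34, SE 0.17, edgeR's quasi-likelihood adjusted p = 0.00342). Its near-identical copy Hspa1b had 157, 205 and 357 counts against 576, 556 and 514 (log2 fold-change -1.04), and reads could be split between these copies.

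**Figure D5:**
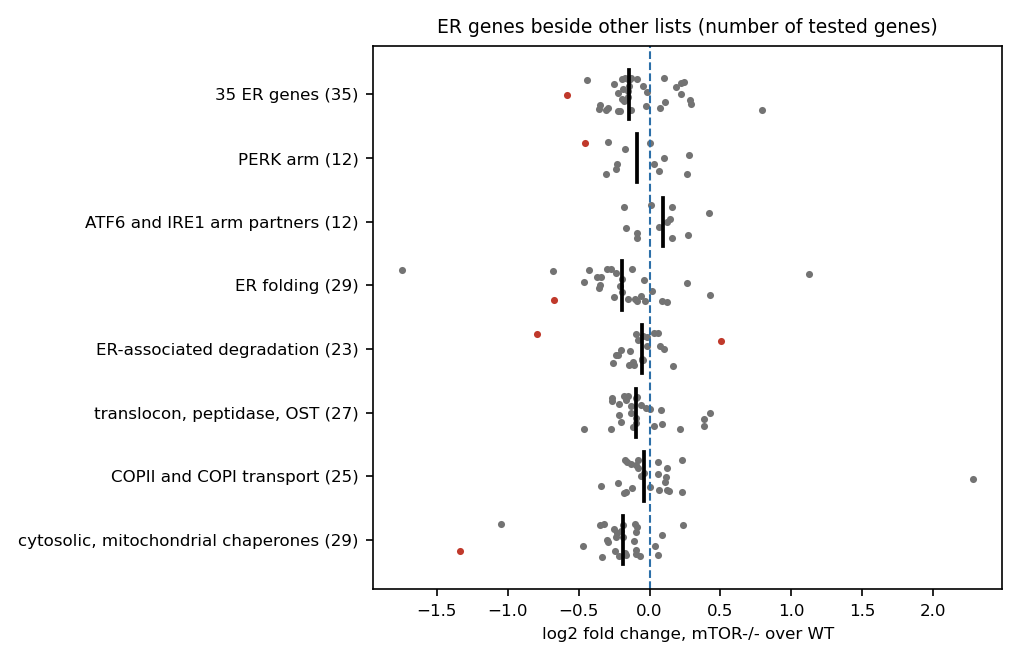
Log2 fold-change (mTOR-/- over WT) of each tested gene of the 35 ER genes, of 6 further lists of the secretory pathway and of chaperones outside the ER, with the number tested in brackets. Black bars are medians, the dashed line is the median of all 12537 tested genes (0.00492), and red points passed edgeR's test. The point at 2.28 is Tmed2, which rested on mTOR-/- replicate 3.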

How the data were processed

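RNA of WT and mTOR-/- M-MDSCs (3 libraries each, total RNA, TruSeq kit) was sequenced. The authors deposited whole-number counts per gene and FPKM values. Their methods name Bowtie2, mm10, HTSeq and DESeq2, whereas the submitters' processing notes list HISAT2 2.0.4, StringTie 1.3.0, GRCm38.p4 and mm9, so the aligner and build behind the counts are uncertain. The annotation release and strand setting are not given in the sources used here, and the exons of 10 of the 35 genes overlap another gene (7 on the opposite strand only), where reads could be split. Of 36 columns with per-sample values, 24 were not used. The authors' own comparison (fold changes, p-values and q-values) was not used.

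Counts were analysed with R 4.3.3 and edgeR 4.0.16: filterByExpr (minimum count 10, total 15), TMM normalization and the quasi-likelihood test without a block, with Benjamini-Hochberg adjustment. CPM are TMM-normalized. The biological coefficient of variation was 19.0%. FPKM served for levels per length and one alternative. Alternatives used DESeq2 1.42.0, limma 3.58.1 on log2(FPKM + 0.1), other normalizations and filters, a replicate block, and each library left out. The scripts were tested on simulated data. Members and lists were chosen with earlier results of these data known. All 35 members are named. Of the other lists, genes past the test with a mean of at least 50 counts are named, and others were chosen after their values were seen. The study's methods give n = 3 beside the WT and Lyz-mTOR mice and do not tie a library to a mouse or culture, so p-values measure the spread between these libraries. Exact tests of 3 against 3 cannot go below p = 0.1 and were not used.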

Additional observations from a re-analysis of the deposited data

How the results depend on the processing

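Genes of the module higher past the test numbered 0 in the 13 alternatives run, and genes past it with a fold-change of 2 also numbered 0. With DESeq2, 1066 genes passed the test, 356 with the fold-change of 2, and 5 genes of the module were lower: Ero1lb, Ero1l, P4hb, Edem1 and Ssr2. The cause was not tested. With the replicate number as a block, 279 genes passed, Ero1lb among them, and 1 gene of the module was lower. No pairing by number was seen over all tested genes. Deviations of same-numbered libraries from their group means correlated at -0.076, -0.025 and -0.061, and 0 of 6 libraries correlated best with its own number. Correlations over all genes cannot exclude a factor that same-numbered libraries share in some genes, and Hspa5 was highest in replicate 1 of both groups. With each library left out in turn, 173 to 513 genes passed, 114 to 229 with the fold-change of 2, and 0 to 1 of the module were lower, with 0 without each of the WT libraries. The lone loss there was Ero1lb, which passed in 10 of the 13 alternatives. The median of the module was -0.22 to -0.05 (-0.22 without mTOR-/- replicate 1 and -0.05 without replicate 3). Signs turned for 6 genes as single libraries were left out. Over these fits Hspa5 lay between -0.0216 (without mTOR-/- replicate 1) and 0.59, Dnajb9 between -0.0225 (likewise) and 0.15, Hsp90b1 between -0.12 and 0.0324 (without mTOR-/- replicate 3), Dnajb11 between -0.0813 and 0.0481 (likewise), Dnajc3 between -0.11 and 0.00404 (likewise) and Sec61a1 between -0.20 and 0.0145 (likewise). The other 29 kept their direction. Among the other lists, Hspa1a passed in 13 of 13, Cnpy2 in 9, and Atf3, Ube2g2 and Aup1 in 7 each. With 3 libraries per group, the 95% intervals bound the change of 30 of the 35 genes to within 1.5-fold, against 5529 of all 12537 tested genes. Differences inside an interval that includes 0 were not resolved.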

Other observations

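Single libraries stood out for some genes of the secretory pathway, chosen after their values were seen. Tmed2, a cargo receptor of COPI and COPII vesicles, had 625 counts in mTOR-/- replicate 3 and 58 and 67 counts in mTOR-/- replicates 1 and 2, with 60, 63 and 46 counts in WT. Its log2 fold-change of 2.28 (SE 0.81) did not pass (edgeR's quasi-likelihood adjusted p = 0.152). Txndc5, an ER protein disulfide isomerase, had 1761 counts in WT replicate 1, 709 and 771 counts in the other WT libraries, and 481, 691 and 650 counts in mTOR-/-. Its log2 fold-change was -0.68 (SE 0.32), and it did not pass (edgeR's quasi-likelihood adjusted p = 0.259). WT replicate 1 was also the WT library with the highest Hspa5.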
